A study of Rattus norvegicus with 3 samples.

Results

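The 10 genes described here prepare peptides for display by MHC molecules and lie outside the rat RT1 (MHC) gene family. Their RNA was measured in the neonatal retina after intravitreal injection of STZ. They were Tap1, Tap2, Tapbp, B2m, Psmb8, Psmb9, Psmb10, Cd74, Nlrc5 and Ciita, picked by symbol, and all 10 were found among the 18425 genes measured. Wild-type Sprague Dawley rats received 1 µl into the vitreous at P1, and retinas were collected at P4. The injected fluid was citrate buffer at pH 4.5, saline, or 10 µg of STZ, a glucosamine-nitrosourea that alkylates DNA, diluted from a stock in the same citrate buffer. There was 1 library per condition, and how many retinas went into each was not given in the sources used here. For its functional and histological work the study put buffer into the other eye of STZ-injected animals. Whether the sequenced buffer and STZ retinas came from the same animals is not stated, so the comparison with buffer may be within animals where that with saline may not be. The spread between animals is therefore unknown, no p-value was computed, and every difference below is a difference between libraries with no replicate check. In bulk RNA of this kind, more cells of a type and more RNA per cell cannot be told apart.

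Nearly all nucleated cells show short peptides from their own proteins on MHC class I molecules. The proteasome cuts proteins into peptides, and under interferon its catalytic subunits Psmb6, Psmb7 and Psmb5 are replaced by the immunoproteasome subunits Psmb9, Psmb10 and Psmb8. The Tap1-Tap2 heterodimer then pumps peptides into the endoplasmic reticulum, tapasin (Tapbp) bridges it to empty class I molecules, and B2m is the class I light chain. Class II molecules serve professional antigen presenting cells and reach the endosome with the invariant chain Cd74. Nlrc5 and Ciita are the transactivators of class I and class II genes. The healthy retina is an immune-privileged tissue in which neurons express little MHC and microglia are among the cells that can raise it.

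On the rat reference, 5 of the 10 genes lie on chromosome 20, where the RT1 region is, and Tap2, Psmb8, Tap1 and Psmb9 follow each other there in that order between the class II genes RT1-DOb and RT1-DMb. The others are on chromosomes 3 (B2m), 10 (Ciita), 18 (Cd74) and 19 (Nlrc5 and Psmb10). RefSeq's promoter windows for the assembly GRCr8, which run from 250 bases before to 50 bases after a start site, were matched for 8 of the 10 genes, and Nlrc5 and Ciita were not matched. Because these genes share a known response to interferon, the windows were searched on both strands for the core of the interferon-stimulated response element, GAAA and again GAAA with 2 bases of any kind between them. The core occurred in 6 of the 8 windows, those of Tap1, Tap2, Psmb8, Tapbp, B2m and Psmb10, against 3.92% of all 33469 windows of the same length. The stretches around it are shown so that the shared letters can be compared, with the core in capitals and 15 bases on each side. They read in the direction of the gene, so TTTC repeats mark a core on the opposite strand.
Tap1: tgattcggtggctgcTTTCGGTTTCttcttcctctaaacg
Tap2: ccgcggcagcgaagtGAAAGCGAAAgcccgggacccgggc
Psmb8: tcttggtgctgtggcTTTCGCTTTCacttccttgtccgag
Tapbp: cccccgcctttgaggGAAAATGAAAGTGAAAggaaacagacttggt
B2m: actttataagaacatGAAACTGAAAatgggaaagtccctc
Psmb10: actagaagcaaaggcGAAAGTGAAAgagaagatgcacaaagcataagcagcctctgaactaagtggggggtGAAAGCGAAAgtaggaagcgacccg
Their positions on GRCr8 are chr20:4668640-4668679 for Tap1, chr20:4652313-4652352 for Tap2, chr20:4657011-4657050 for Psmb8, chr20:4967873-4967918 for Tapbp and chr19:50743285-50743380 for Psmb10, all on the minus strand, and chr3:129549165-129549204 for B2m on the plus strand. Tapbp holds 2 overlapping cores and Psmb10 holds 2 separate ones. The core of Psmb8 begins 4 bases before the start site, that of Tap2 41 bases, that of Tap1 121 bases and that of B2m 150 bases before it. A match is a description of letters and not a bound site.

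Psmb9 had no core in its window, yet its start site lies 457 bases from that of Tap1, and the genes are transcribed away from each other. Both windows are shown whole because the pair sits head to head and overlaps by 44 bases. The Tap1 window is chr20:4668494-4668793 on the minus strand and the Psmb9 window chr20:4668750-4669049 on the plus strand, with the core again in capitals.
Tap1: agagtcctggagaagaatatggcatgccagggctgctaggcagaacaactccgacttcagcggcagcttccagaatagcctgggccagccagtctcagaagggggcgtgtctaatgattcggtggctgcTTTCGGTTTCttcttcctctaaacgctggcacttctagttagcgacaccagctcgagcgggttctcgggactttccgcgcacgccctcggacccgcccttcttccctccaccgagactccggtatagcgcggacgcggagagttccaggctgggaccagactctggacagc
Psmb9: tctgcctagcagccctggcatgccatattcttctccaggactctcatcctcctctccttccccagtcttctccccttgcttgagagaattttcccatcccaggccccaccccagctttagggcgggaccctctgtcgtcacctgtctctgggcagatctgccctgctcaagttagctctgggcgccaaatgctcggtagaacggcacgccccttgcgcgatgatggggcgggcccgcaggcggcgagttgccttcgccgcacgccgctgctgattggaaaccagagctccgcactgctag
The windows were also searched for other motifs, and none of their matches overlapped an interferon core. CCAAT was in 4 of the 8 windows (B2m, Cd74, Psmb8 and Psmb9) and in 37.5% of all windows, and TGACG, a part of the cAMP response element, was in 2 of 8 (B2m and Psmb9) and in 21.2%. The gamma-activated site TTCNNNGAA was in 1 of 8 (Psmb8) and in 8.87% of all. The NF-kB site was in 4 of 8 (B2m, Cd74, Tap1 and Tapbp) and in 7.51%.

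The libraries were of nearly equal depth, with between 21977876 and 22031287 reads after rounding. Retinal markers were abundant in all 3, with Crx between 349 and 409 FPKM and Pax6 between 264 and 271 FPKM. The libraries differed in markers of other tissues. The 4 lens markers, in the order buffer, saline, STZ, added up to 175, 402 and 2264 reads. They did not move together. In STZ against buffer the count ratio was 16.8 for Cryaa, 33.2 for Cryba1 and 20.7 for Crygd. Mip was flat, at 73, 73 and 86 reads and a ratio of 1.18 (0.851 to 1.63). Whether the sum reflects lens tissue was not tested. The 5 markers of ciliary and pigment epithelium added up to 374, 1426 and 380 reads, with the saline excess mainly in Pmel, Wfdc1 and Tyr. The 5 endothelial markers summed to 13670, 15016 and 10101 reads and all had a count ratio below 1 in STZ against buffer. Kdr made up most of that sum, at 13149, 14564 and 9972 reads, and its ratio was 0.757. The other ratios were lower, at 0.524 for Pecam1, 0.247 for Tie1, 0.235 for Cdh5 and 0.196 for Cldn5. The part of these tissues in the results below was not tested.

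Levels are given in FPKM, fragment counts scaled for transcript length and library size, and the fold was taken as (FPKM + 1)/(FPKM + 1) with thresholds of 1.54 and 0.65. The added 1 pulls the fold of a weak gene toward 1. For that reason the ratio of the gene's shares of the 2 library totals is given beside it, with an exact 95% interval that covers counting error only. In STZ against buffer, 6 of the 10 genes passed 1.54 (Tap2, Psmb9, Tap1, B2m, Psmb8 and Cd74) and 0 fell below 0.65. Of all genes, 2.25% passed 1.54 and 1.04% fell below 0.65. The median log2 fold was 0.83 over the 10 genes, 1.03 over the 9 without Ciita, and 0.02 over all genes. By the counting interval, 9 of the 10 lay above 1, against 22.2% of all genes with a read, and the tenth was Ciita, with too few reads for a ratio.

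In STZ against saline, 5 of the 10 passed 1.54, where 2.04% of all genes did, and 0 fell below 0.65, where 1.75% did. The gene that no longer passed was Cd74. The median log2 fold was 0.63 over the 10 genes and 0.00 over all, and 8 of the 10 had an interval above 1, against 22.5% of genes with a read. These comparisons share the STZ library, so they are not independent of each other. The 4 neighbours Tap2, Psmb8, Tap1 and Psmb9 all passed against both controls, with a median log2 fold of 1.79 against buffer. Of the 6 genes elsewhere, B2m and Cd74 passed against buffer, and B2m did against saline.

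**Figure D1:**
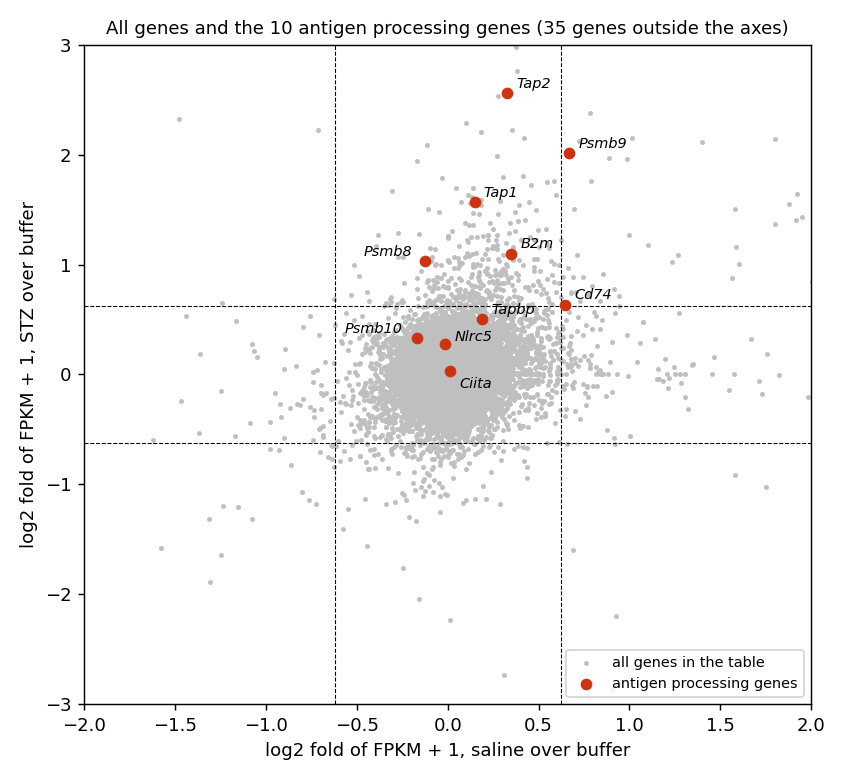
Each grey point is a gene of the deposited table, with its log2 fold of FPKM + 1 in saline over buffer on the horizontal axis and in STZ over buffer on the vertical axis, and red points are the 10 antigen processing genes (1 library per condition, dashed lines at the thresholds of 1.54 and 0.65, 35 genes outside the axes). Tap2 is at 2.56 and Psmb9 at 2.01 on the vertical axis, and Psmb9 and Cd74 alone among the 10 lie to the right of the upper threshold for saline.

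The peptide transporter held the largest fold of the 10 genes. Tap2 was measured at 1.21 FPKM after buffer, 1.77 after saline and 12.03 after STZ, with estimated counts of 58.46, 85.56 and 581.65. The STZ library stood far above both controls, and saline was above buffer by a count ratio of 1.48 (1.05 to 2.11). Its fold was 5.90 against buffer, rank 18 among the 18425 genes, and 4.70 against saline, rank 21. By count shares, STZ exceeded buffer 10.0 times (95% counting interval 7.64 to 13.4) and saline 6.75 times (5.38 to 8.57). Tap2 was the 1 gene of the 10 with fractional counts, whose origin is not given in the sources used here, and its intervals leave out any error from that estimation.

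Tap1, the partner subunit, had 30 reads in buffer, 39 in saline and 195 in STZ, or 0.56, 0.73 and 3.62 FPKM. It too was high in STZ alone. The fold of FPKM + 1 was 2.96 against buffer and 2.67 against saline, and the count ratio 6.49 (4.40 to 9.88) and 4.99 (3.52 to 7.23). The transporter works as a heterodimer, and Tap2 exceeded Tap1 in FPKM by 2.16 times in buffer, 2.42 times in saline and 3.32 times in STZ. The ratio of Tap2 to Tap1 reads was 1.54 times as high in STZ as in buffer, with a counting interval of 0.930 to 2.52, so a difference between the subunits was not resolved at this depth.

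Tapbp, the bridge to class I, was already at 8.43 FPKM in buffer and moved less. Its reads numbered 247, 285 and 363 in the buffer, saline and STZ libraries. The fold was 1.42 against buffer and 1.24 against saline, both short of 1.54, while the count ratio was 1.47 (1.24 to 1.73) and 1.27 (1.09 to 1.49). Saline and buffer differed by less than the counting error, at 1.15 (0.970 to 1.37).

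B2m was the most abundant of the 10 genes in every library. Its level was 12.38 FPKM with buffer, 16.05 with saline and 27.69 with STZ (435, 563 and 975 reads), highest in STZ. The folds were 2.14 over buffer and 1.68 over saline, and the count ratios 2.24 (2.0 to 2.51) and 1.73 (1.56 to 1.92). Saline was above buffer by more than counting error, with a ratio of 1.30 (1.14 to 1.47). In buffer the order of levels was B2m, Psmb10 at 9.95 FPKM and Tapbp, with the other 7 genes at or below 1.49 FPKM. In STZ, Tap2 had come level with Psmb10 at 12.76 and Tapbp at 12.37 FPKM. On the scale of all genes, B2m moved from percentile 59.2 of FPKM in buffer to 77.2 in STZ, and Psmb9 from 30.1 to 48.1.

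**Figure D2:**
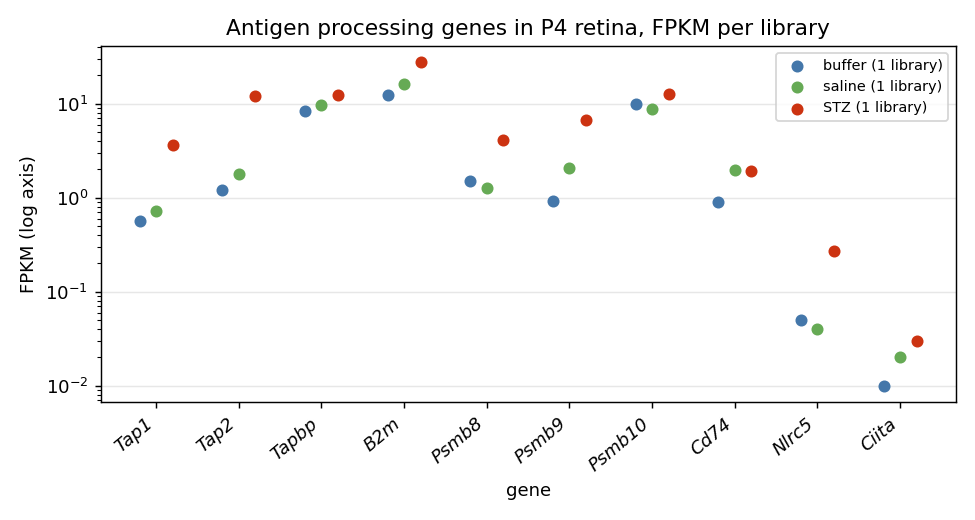
Points give the FPKM (log axis) of each antigen processing gene in the buffer, saline and STZ libraries, 1 library per condition and no error bar. STZ is the highest point for 9 of the 10 genes, and for Cd74 saline at 1.96 and STZ at 1.93 FPKM coincide. The 9 include Ciita, whose 1, 2 and 3 reads in buffer, saline and STZ are too few to detect a difference.

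The immunoproteasome subunits changed to different extents. Psmb9, which replaces Psmb6, had 14, 31 and 102 reads in the order buffer, saline, STZ, and folds of 4.04 over buffer and 2.54 over saline. All 3 libraries were apart, with count ratios of 7.27 in STZ against buffer (4.14 to 13.8), 3.28 in STZ against saline (2.18 to 5.08) and 2.22 in saline against buffer (1.14 to 4.51). Psmb8, which replaces Psmb5, had 28, 24 and 77 reads and was high in STZ alone. Its folds were 2.04 and 2.23 and its count ratios 2.75 (1.76 to 4.40) against buffer and 3.20 (2.0 to 5.29) against saline. Psmb10, which replaces Psmb7, had 168, 147 and 216 reads. It differed least, with folds of 1.26 and 1.41 that did not pass and count ratios of 1.28 (1.04 to 1.58) and 1.47 (1.18 to 1.82).

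The constitutive subunits gave the scale of these changes. Psmb6 had 178, 175 and 192 FPKM in buffer, saline and STZ, Psmb7 189, 186 and 197, and Psmb5 155, 157 and 168, so none came near a threshold. Psmb9 was 0.519% of the FPKM of the Psmb9-Psmb6 pair in buffer, 1.17% in saline and 3.42% in STZ. Psmb8 was 0.949%, 0.809% and 2.37% of its pair, and Psmb10 5.0%, 4.48% and 6.08%. The standard form thus made up nearly all of each pair in every library. Counted against its own counterpart, Psmb9 was 6.68 times higher in STZ than in buffer (3.79 to 12.7) and Psmb8 2.53 times (1.62 to 4.07), while for Psmb10 the interval held 1, at 1.23 (0.995 to 1.52). The picture depended on the control. Set against saline, Psmb9 and Psmb8 were both at 2.97 (1.96 to 4.61 and 1.85 to 4.94), and Psmb10 at 1.38 had an interval above 1 (1.11 to 1.72). Psmb8 lay above Psmb9 in buffer FPKM (1.49 and 0.93) and below it in both saline (1.28 and 2.07) and STZ (4.09 and 6.79).

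**Figure D3:**
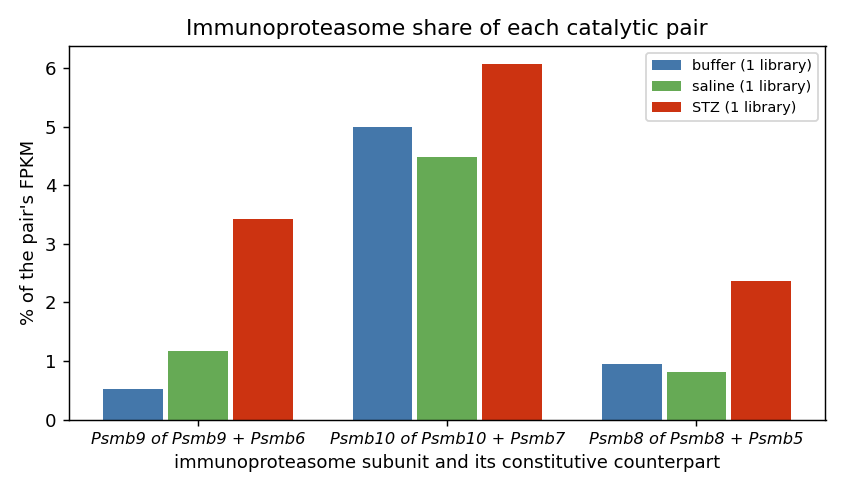
Bars give the immunoproteasome subunit as a percentage of the summed FPKM of the subunit and its constitutive counterpart, in 1 library per condition and with no error bar. Psmb9 goes from 0.519% in buffer to 3.42% in STZ and Psmb8 from 0.949% to 2.37%, while Psmb10 is highest throughout, at 4.48% to 6.08%.

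Cd74, the invariant chain of class II, was the 1 gene of the 9 with enough reads for a ratio whose FPKM in STZ (1.93) was not above that in saline (1.96). It had 20 reads with buffer, 43 with saline and 44 with STZ. The saline and STZ libraries were alike and the buffer library was low. The fold was 1.55 in STZ against buffer, 1.57 in saline against buffer and 0.990 in STZ against saline, and the counting interval of the last ratio was 0.655 to 1.59. With TMM or median-of-ratios scaling the number of genes past 1.54 in STZ against buffer fell from 6 to 5, as Cd74 lay at the threshold. Against saline, therefore, no rise in Cd74 was detectable at this depth.

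The transactivators were at the bottom of the range. Nlrc5 had 10 reads in buffer, 9 in saline and 56 in STZ, or 0.05, 0.04 and 0.27 FPKM. Its controls were the same within counting error and STZ was higher, by count ratios of 5.59 (2.83 to 12.3) and 6.21 (3.05 to 14.3). The fold of FPKM + 1 was only 1.21 and 1.22, because at this level the added 1 outweighs the gene. Ciita had 1, 2 and 3 reads, at or under the limit of 3 reads in every library, so no fold is given and a difference was not detectable. The class I transactivator was thus measured above its control level, and the class II transactivator could not be measured.

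**Figure D4:**
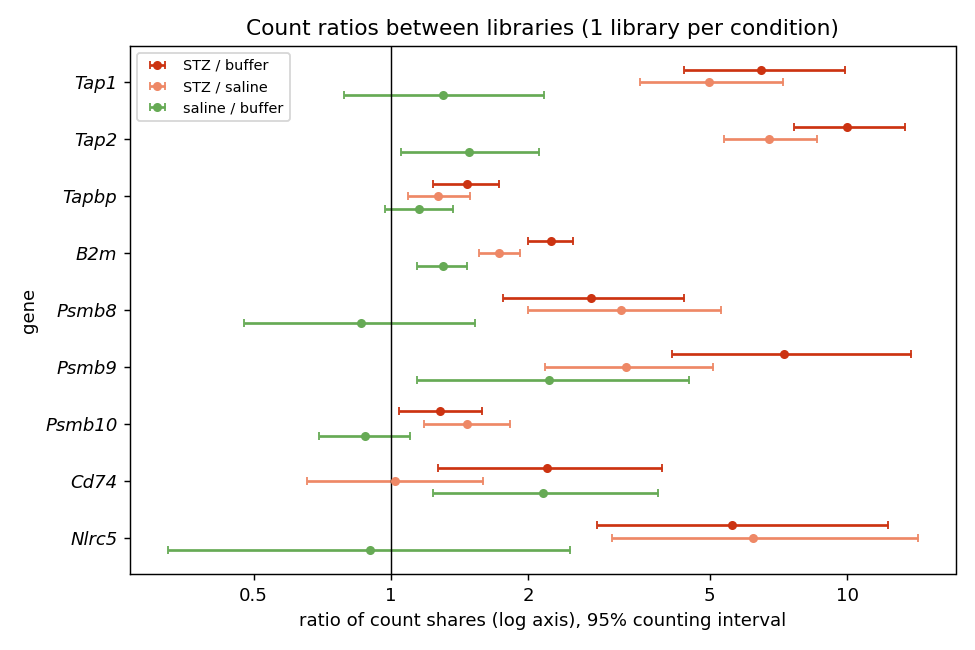
Points are ratios of count shares between libraries (log axis) for 9 antigen processing genes in 3 comparisons, with exact 95% intervals for counting error only, and 1 library per condition. In STZ over buffer all 9 intervals lie right of 1, from 1.28 for Psmb10 to 10.0 for Tap2, while the interval of Cd74 in STZ over saline spans 1.

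Between the controls the 10 genes were not level. In saline against buffer, Psmb9 and Cd74 passed 1.54 and 0 genes fell below 0.65, where 1.0% of all genes passed and 0.429% fell. The interval lay above 1 for 4 of the 10 (Psmb9, Cd74, Tap2 and B2m), against 13.6% of genes with a read. The median log2 fold was 0.17, and 0.01 over all genes. Psmb8, Psmb10 and Nlrc5 were the 3 members with a fold under 1, at 0.916, 0.889 and 0.990, and all 3 had an interval that held 1.

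Further genes of the pathway were taken from lists. The 6 partners of peptide loading in the endoplasmic reticulum had folds of 1.12 to 1.32 against buffer. Of them 0 passed, where 2.25% of all genes did, so that count says nothing particular about so short a list. All 6 had an interval above 1 against buffer, where 22.2% of genes with a read did, and 5 did against saline, where 22.5% did. The interval narrows with the number of reads, so these shares depend on level too. Canx, with 15482 reads in buffer, lay above 1 at a count ratio of only 1.12. Calr, Pdia3 and Canx, chaperones of the folding class I molecule, had folds of 1.22, 1.14 and 1.12. Of the 4 proteasome activator genes, Psme2, a subunit of the interferon-inducible PA28 cap, passed against both controls. Its reads were 388, 412 and 652, and its folds 1.64 over buffer and 1.54 over saline, the second only just past the threshold. Its count ratios were 1.68 (1.48 to 1.91) and 1.58 (1.39 to 1.79). Its partner Psme1 had a fold of 1.21, and Psme3 and Psme4 had 1.07 and 0.926. The 11 other subunits of the proteasome core, led in level by Psmb4, Psmb1 and Psma7, had folds of 1.01 to 1.17, with a median log2 fold of 0.11.

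On the class II side, the 4 endosomal enzymes all had an interval above 1 against buffer, where 22.2% of genes with a read did. Of the 4, 2 passed against buffer and 3 against saline, where 2.25% and 2.04% of all genes did. Lgmn, a protease of the endosome, had 975, 1050 and 2326 reads and folds of 2.33 against buffer and 2.17 against saline. Ctss, the cathepsin that trims the invariant chain, had 127, 154 and 307 reads and folds of 2.22 and 1.87. Lgmn and Ctss thus passed against both controls, which Cd74 did not. Ifi30, a thiol reductase, had folds of 1.44 over buffer and 1.56 over saline, and Ctsl 1.35 and 1.16. Of the RT1 genes around the cluster, RT1-DOb, directly beside Tap2, had 2, 1 and 2 reads, at or under the limit of 3 in every library. RT1-DMb had 56, 73 and 168 reads, RT1-DMa 16, 2 and 144, RT1-Ba 2, 3 and 20, and RT1-Bb 0, 4 and 8. Reads of this family can be split between near-identical copies.

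Among regulators of MHC transcription, Irf8 and Spi1 passed against both controls. These factors of the myeloid lineage had 87, 101 and 233 reads and 17, 27 and 75 reads, with folds against buffer of 2.01 and 2.44. The subunits Nfya, Nfyb and Nfyc, which bind CCAAT in many cell types, were flat, with folds of 0.946, 1.01 and 0.958. Among interferon receptors, their kinases and the inhibitor Socs1, 7 genes were analysed and 0 passed against buffer, where 2.25% of all genes did, so a count of 0 in so short a list says nothing particular about it. Ifnar1 had a fold of 0.896, Jak1 of 1.09 and Ifngr1 of 1.21. Ifng and Ifnb1 were listed but not found by symbol among the 18425 genes used here, so they could not be analysed.

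Markers of microglia moved in the same libraries. All 10 microglial and macrophage markers had an interval above 1 in STZ against both controls. Among genes with a read, 22.2% did against buffer and 22.5% against saline. Of the 10 markers, 7 passed 1.54 against each control, where 2.25% of all genes did against buffer and 2.04% against saline. They summed to 1506 reads in buffer, 1669 in saline and 3301 in STZ, a ratio of 2.19 against buffer (2.06 to 2.33) and 1.97 against saline (1.86 to 2.09). Markers of other immune cells were mostly at few reads. The B cell markers summed to 3, 6 and 5 reads (2 of 4 analysed) and the neutrophil markers to 0, 7 and 9 (4 of 5 analysed). The T cell markers summed to 146, 186 and 234 (3 of 6 analysed), most of it Cd4 at 127, 165 and 197 reads, with Cd8a at 1, 3 and 10. Cd3d, Cd3e and Cd3g of that list were not found by symbol among the 18425 genes, so the sum cannot be read as a measure of T cells. The dendritic cell markers summed to 702, 704 and 727 reads (5 of 6 analysed), nearly all of them Zbtb46, at 671, 652 and 670 reads, with Ccr7 at 0, 0 and 1. Itgax of that list, which microglia can also express, had 10, 15 and 29 reads, a ratio of 2.89 in STZ against buffer (1.37 to 6.66). The part of microglial number in the changes of the antigen processing genes was not tested.

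Set against the summed microglial markers, the 10 genes fell into different ranges. Tap2 had 38.5 reads per 1000 microglial marker reads in buffer, 51.5 in saline and 176 in STZ, which was 4.58 times the buffer value (3.46 to 6.15) and 3.42 times the saline value (2.70 to 4.38). Tap1 had 19.9, 23.4 and 59.1, Psmb9 9.30, 18.6 and 30.9, and Nlrc5 6.64, 5.39 and 17.0, and for each of them the interval lay above 1 against both controls. These 4 genes increased by more than the marker sum did. B2m kept pace with the marker sum against buffer, at 289 and 295 reads per 1000 and a ratio of 1.02 (0.898 to 1.17). Against saline it rose slightly less than the marker sum, at 0.876 (0.776 to 0.989). Cd74 had 13.3 reads per 1000 in both buffer and STZ, against 25.8 in saline. Psmb8 had 18.6, 14.4 and 23.3, with an interval that held 1 against buffer (0.801 to 2.02) and lay just above it against saline (1.01 to 2.69). Tapbp and Psmb10 fell short of the markers, with ratios of 0.671 (0.562 to 0.801) and 0.587 (0.473 to 0.729) against buffer.

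**Figure D5:**
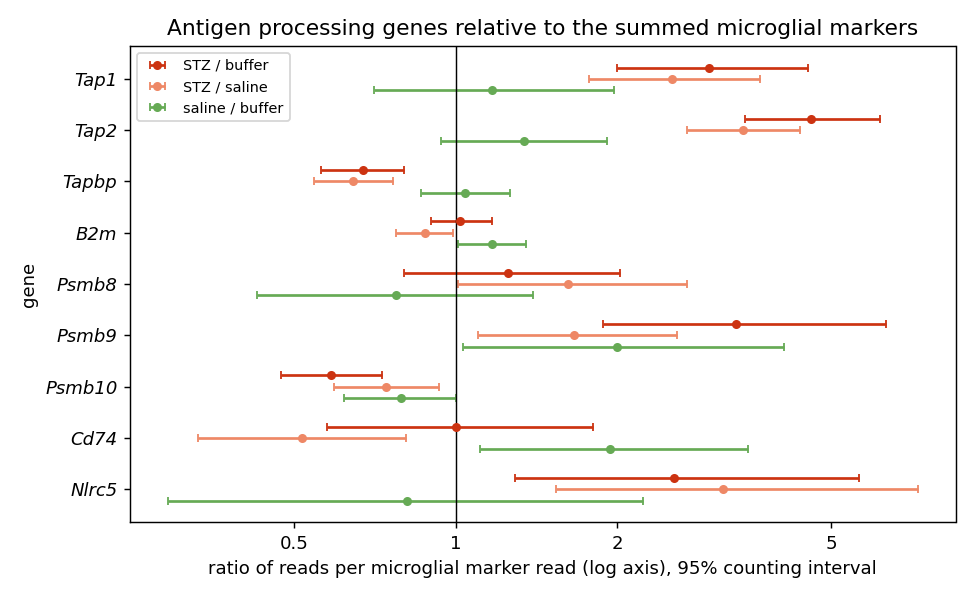
Points are the change between libraries in a gene's reads per read of the 10 summed microglial markers (log axis), with 95% intervals for counting error only, and 1 library per condition. In STZ over buffer Tap2 is at 4.58, Psmb9 at 3.32 and Tap1 at 2.96, B2m and Cd74 sit at 1.02 and 1.00, and Tapbp and Psmb10 lie left of 1.

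The genes whose 3 libraries most resembled these were sought among 10972 other genes with whole counts and a mean of at least 50 reads. Likeness was the distance on the log2 fold of STZ over buffer and of saline over buffer, which is only 2 values from 3 libraries and is a description. Nearest to the median of the 9 antigen processing genes with a mean of at least 10 reads (1.03 and 0.19) were Ctsd, Galns, Myo1f, Irf8 and Ctsb, at distances of 0.037 to 0.062. Ctsd and Ctsb are lysosomal cathepsins and Galns a lysosomal sulfatase. Ctsd had 2935 reads in buffer, 3324 in saline and 5904 in STZ, and Myo1f, a myosin of leukocytes, 62, 86 and 213. Tap2 had no neighbour that close. The nearest were Mpeg1 at 0.340, Angptl4 at 0.353 and Rac2 at 0.424. Mpeg1, a pore protein of macrophages, had 336, 453 and 1891 reads, and its fold of 4.66 against buffer stayed below the 5.90 of Tap2.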

How the data were processed

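Total RNA of 3 retinal samples was made into libraries with an Illumina TruSeq kit. The authors trimmed reads, mapped them with TopHat2 allowing 2 mismatches (rn6 by the submitters' processing notes, which also name FastQC), dropped reads with several locations and computed FPKM with an R script. The authors deposited FPKM, TPM and estimated counts per gene. How the TPM and the estimated counts were made is not given in the sources used here. Fractional counts (12.9% of genes in buffer, 13.2% in saline, 13.1% in STZ) were rounded. TPM entered 1 alternative.

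Folds, ratios and intervals were computed with scipy 1.17.1, numpy 2.4.6 and pandas 2.3.3 under Python 3.11.15, and tested on simulated data. Ratios of ratios have exact conditional intervals. Scaling factors came from edgeR 4.0.16 (TMM) and DESeq2 1.42.0 (median of ratios) in R 4.3.3, and no model was fitted. Without molecular identifiers, reads cannot be taken as independent molecules, so intervals cover counting error only. RefSeq (GRCr8) matched 17120 of 18425 identifiers and served for gene order and promoters only.

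The 10 genes and all lists were chosen with earlier results of these data known. Named from a list were its 3 most abundant genes and any past a threshold against buffer and saline alike whose mean reached 10 reads, and beyond that rule genes needed as markers, Psmb pairs or RT1 neighbours. For the regulators of MHC transcription, 1 result and the counts over that list are not reported here.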

Additional observations from a re-analysis of the deposited data

How the results depend on the processing

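The direction of the median held under every alternative tried: a pseudocount of 0.1, TMM or median-of-ratios scaling, CPM or TPM in place of FPKM, members with a mean of at least 10 reads, whole counts only and, for STZ against buffer, the mean of both controls. It ranged from 0.63 to 1.23 in STZ against buffer and from 0.50 to 1.09 in STZ against saline. The number past the fold threshold in STZ against buffer lay between 5 and 7, also with a threshold of 2. A counting interval above 1, which is no fold threshold, was met by 9 of the 10 genes and by 22.2% of all genes with a read. In STZ against saline, 5 genes became 8 when the counting interval had to lie above 1. In saline against buffer, 2 became 1 with CPM, 0 with a threshold of 2 and 4 with the counting interval. Of 135 single folds under an alternative, 131 shifted by less than the counting error of that gene's ratio on the log2 scale, and the other 4, those of Tap1 and Tap2 with a pseudocount of 0.1, were larger. Nlrc5 was among the 131 because its interval is wide, yet its call depended on the setting. Its fold against buffer was 1.21, but 2.47 with a pseudocount of 0.1, 2.43 with CPM and 1.39 with TPM. Against saline the values were 1.22, 2.64, 2.51 and 1.40. TPM was chosen as an alternative after seeing the data. With 1 library per condition no library could be left out and no paired analysis was possible because there is 1 library per condition, whether or not the buffer and STZ retinas shared animals.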
